A study of Arabidopsis thaliana with 28 samples.

Results

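Arabidopsis thaliana carries its histones in small gene families, and 39 of these genes are described here across the nucleus and the cytoplasm of mos11 and of the wild type Col-0. The 39 loci were chosen by their gene identifiers, out of 30901 genes in the count table, as genes for the linker histone H1 (3 genes) and the core histones H2A (12), H2B (8), H3.1 (5), H3.3 (3) and H4 (8). The rule uses no measured value, but the members were chosen with earlier results of these data known. RNA was sequenced from nuclear and cytoplasmic fractions of rosettes of plants aged 14 days, with 5 libraries of the mos11 nucleus, 5 of the mos11 cytoplasm, 4 of the Col-0 nucleus and 4 of the Col-0 cytoplasm. The mos11 plants are mutants of MOS11, a gene for an mRNA export factor, and the design asks for defects of RNA export in them. The fractions were separated by differential centrifugation. The labels name no allele of mos11 and no treatment, give both soil and MS medium without saying which these plants had, and do not say how many plants were pooled. Nor do they tell whether a group's libraries go back to different plants. A p-value here therefore sets a difference against the spread among the libraries sequenced, part or all of which may be technical.

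An H2A, H2B, H3 and H4 octamer wraps DNA into the nucleosome, and the linker histone H1 binds where the DNA enters and leaves it. Most core histone genes are transcribed in S phase, when new chromatin is assembled. H3.1 is laid down behind the replication fork by the chaperone complex CAF-1, while H3.3 is exchanged into chromatin outside S phase, among others through HIRA. Plant histone mRNAs carry poly(A) tails, unlike the replication-dependent histone mRNAs of animals. In a rosette, dividing cells are a minority beside expanded leaf cells, and in such bulk samples fewer cells of a type and less RNA per cell cannot be told apart.

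The libraries held 1966574 to 18213517 counts in mos11 nuclei and 907270 to 1280371 in the mos11 cytoplasm, against 2547560 to 3719008 in Col-0 nuclei and 556016 to 1160001 in the Col-0 cytoplasm. The 39 histone genes together took 0.0977% to 0.101% of the counts in mos11 nuclei and 0.352% to 0.373% in the mos11 cytoplasm, against 0.117% to 0.124% in Col-0 nuclei and 0.413% to 0.437% in the Col-0 cytoplasm. MOS11 itself averaged 8.31 ± 2.68 CPM in the mos11 cytoplasm and 107.8 ± 17.9 CPM in the Col-0 cytoplasm (SD, n = 5 and 4), a log2 fold change of -3.73 ± 0.19 (edgeR adjusted p = 5.8e-13). In the nucleus it averaged 168.8 ± 9.14 CPM in mos11 and 205.3 ± 14.7 CPM in Col-0. This difference of -0.28 ± 0.10 on the log2 scale missed the threshold (adjusted p = 0.055), with 158.3 to 183.3 CPM in mos11 and 193.0 to 226.7 CPM in Col-0. The 4 leaf markers, which include the small subunit of Rubisco, summed to 47150 to 54420 CPM in the mos11 cytoplasm and 49320 to 61490 CPM in the Col-0 cytoplasm. Markers of seeds and flowers summed to at most 5.76 CPM in any library, those of roots to at most 19.2 CPM and those of the shoot meristem to at most 30.6 CPM. The spread between libraries was wider in the wild type: the biological coefficient of variation was 6.38% in mos11 nuclei and 10.7% in the mos11 cytoplasm, against 17.8% in Col-0 nuclei and 23.8% in the Col-0 cytoplasm. Pairs with Col-0 replicate 3 differed by a chi-square per degree of freedom of 4.73 to 11.46 in nuclei and 3.74 to 5.70 in cytoplasm, against 1.95 to 6.49 and 2.08 to 3.41 for pairs of the other Col-0 libraries. Without both libraries of this replicate the histone counts given below were 36 and 36 between the fractions of mos11 and Col-0, 8 and 18 between the genotypes in nucleus and cytoplasm, and 0 for the ratio, in place of 36, 36, 8, 16 and 0. In the cytoplasm HTA13 (AT3G20670, adjusted p = 0.015), AT1G09200 (0.0052) and AT5G10390 (0.019) were then called as well, and HTA7 (AT5G27670, 0.087) was not.

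Levels below are CPM (counts scaled to a common library size) adjusted by TMM, an edgeR correction for RNA composition. Fold changes are log2 values with an approximate standard error from edgeR's quasi-likelihood test. A gene is called changed at a Benjamini-Hochberg adjusted p of at most 0.05 over the 16207 genes tested. Of the 39 histone genes 37 had enough counts to be tested. HTA8 (AT2G38810), for a histone H2A.Z, and AT3G27360, for H3.1, did not: HTA8 had 5 to 50 counts per library in mos11 nuclei and 0 to 6 in the Col-0 cytoplasm. AT3G27360 had 4 to 32 counts in mos11 nuclei and 1 to 11 in the Col-0 cytoplasm.

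The families differ in structure and in their promoters, and a few sequences are printed here because the genes they belong to carry the comparisons that follow. In the transcript with the longest coding sequence, all 8 H2B and all 5 H3.1 genes are annotated with 1 exon, H1 genes with 2, H2A genes with 2 or 3, H3.3 genes with 3 to 5, and H4 genes with 1 except AT1G07660 with 2 (RefSeq, TAIR10.1). The H4 genes AT1G07820 and AT5G59970 have a further transcript of 2 exons. The 250 bases before the annotated start were searched on both strands for 4 motifs known from plant histone promoters or cell-cycle genes. CGCGGATC, the histone octamer, stood before 10 of the 39 histone genes (25.6%) and before 37 of all 27443 protein-coding genes (0.135%). ACGTCA, a hexamer, stood before 10 of 39 (25.6%) and before 7.69% of all genes, and 7 of the 8 H2B genes held it. TTTNNCGC, a pattern broader than the consensus of E2F factors, stood before 12 of 39 (30.8%) and before 5.86% of all genes. ACGTG, the core of G-box-type elements, stood before 16 of 39 (41.0%) and before 22.9% of all genes, and it overlaps the hexamer where the letters run CACGTCA or TGACGTG. A match describes the letters only. Capitals mark these matches in the 5 promoters below, which belong to 2 H1 genes and to 1 gene each of H2B, H3.1 and H4 that are described later:
AT1G06760 (H1), chr1:2077768-2078017, minus strand: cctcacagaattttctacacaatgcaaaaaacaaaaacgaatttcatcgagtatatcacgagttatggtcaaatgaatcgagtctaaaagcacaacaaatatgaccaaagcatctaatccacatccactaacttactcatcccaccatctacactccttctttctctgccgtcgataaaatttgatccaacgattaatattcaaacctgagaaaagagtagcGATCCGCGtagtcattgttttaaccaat
HIS1-3 (AT2G18050, H1), chr2:7845673-7845922, plus strand: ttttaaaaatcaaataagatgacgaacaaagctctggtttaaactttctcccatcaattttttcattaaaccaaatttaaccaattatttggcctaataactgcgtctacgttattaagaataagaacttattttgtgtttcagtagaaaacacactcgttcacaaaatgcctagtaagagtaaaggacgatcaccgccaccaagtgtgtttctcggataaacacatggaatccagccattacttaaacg
HTB2 (AT5G22880, H2B), chr5:7652715-7652964, minus strand: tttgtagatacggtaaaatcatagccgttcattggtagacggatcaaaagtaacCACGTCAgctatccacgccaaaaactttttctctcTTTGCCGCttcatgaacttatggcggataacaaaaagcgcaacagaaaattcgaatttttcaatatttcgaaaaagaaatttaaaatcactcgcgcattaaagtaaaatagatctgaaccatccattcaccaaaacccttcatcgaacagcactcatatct
AT5G10400 (H3.1), chr5:3270958-3271207, minus strand: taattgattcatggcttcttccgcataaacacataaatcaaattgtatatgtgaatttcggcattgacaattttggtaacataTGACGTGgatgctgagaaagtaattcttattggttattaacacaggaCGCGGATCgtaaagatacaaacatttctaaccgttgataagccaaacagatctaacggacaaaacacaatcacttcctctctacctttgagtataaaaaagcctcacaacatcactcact
AT5G59690 (H4), chr5:24051224-24051473, plus strand: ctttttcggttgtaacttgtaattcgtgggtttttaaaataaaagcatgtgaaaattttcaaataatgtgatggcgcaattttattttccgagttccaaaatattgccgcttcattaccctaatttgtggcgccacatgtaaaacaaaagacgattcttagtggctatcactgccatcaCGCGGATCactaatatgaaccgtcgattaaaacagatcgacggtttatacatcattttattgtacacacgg
The octamer ended 21 bases before the start of AT1G06760, on the other strand, and it stood 71 to 64 bases before that of AT5G59690. The HIS1-3 window held none of the 4 motifs, and neither did that of the H1 gene AT2G30620.

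**Figure D1:**
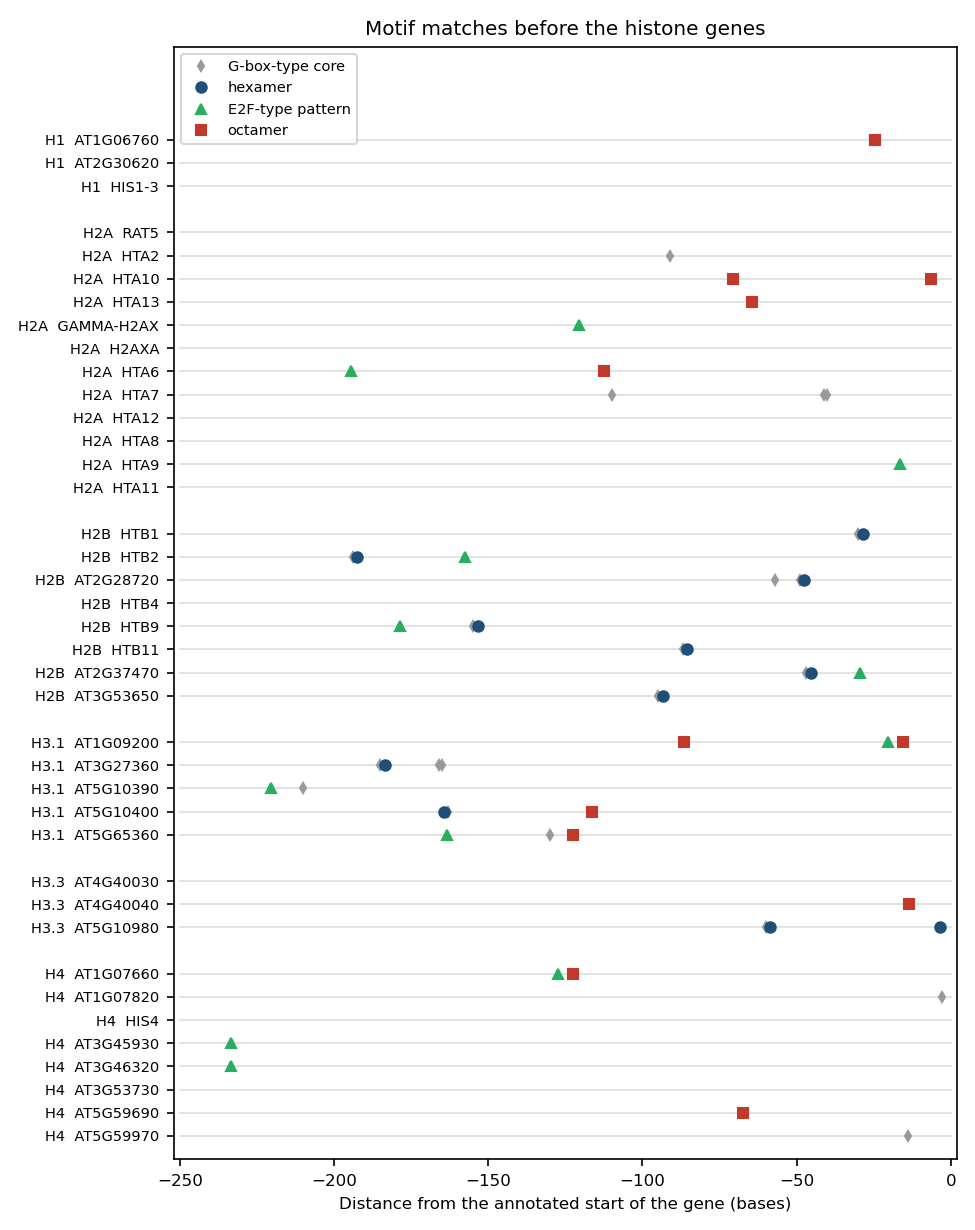
Motif matches in the 250 bases before each of the 39 histone genes, by distance from the annotated start in bases (x axis), with genes grouped by histone type down the page. The hexamer (circles) stands before 7 of 8 H2B genes and before none of the H1, H2A and H4 genes, and the octamer (squares) before 10 genes, none of them for H2B.

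The first question was how scaled levels of histone transcripts compared between nucleus and cytoplasm. These levels are relative to the other transcripts of a fraction. How the molecules of a gene were divided between the compartments was not measured. In mos11, 36 of the 37 genes tested were called lower in the nucleus than in the cytoplasm, and the same number in Col-0. Among all genes tested 35.3% were called lower and 40.8% higher in the nucleus in mos11, and 32.8% lower and 40.6% higher in Col-0. The median log2 fold change of the histone genes, nucleus over cytoplasm, was -3.01 in mos11 and -3.30 in Col-0, against 0.18 and 0.30 over all genes tested in the same genotypes. Nuclear and cytoplasmic libraries did not overlap for any of the 36 genes in either genotype, which held for 30.5% of all genes in that direction, and 34.8% in the other, in mos11, and for 27.6% and 36.1% in Col-0. Protein-coding genes with transcripts as long as those of the members (644 to 1666 bases, 6724 genes) had a median of -0.61 in mos11 and -0.68 in Col-0, and the 1903 protein-coding genes with 1 exon in the transcript with the longest coding sequence one of -0.49 and -0.46. The cytoplasmic libraries are listed on both flow cells and the nuclear ones on 1, except mos11 nuclear replicate 2. No source used here tells whether a column of the count table sums both flow cells, and fraction and flow cell cannot be told apart. The exception among the 37 genes was the linker histone gene HIS1-3.

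**Figure D2:**
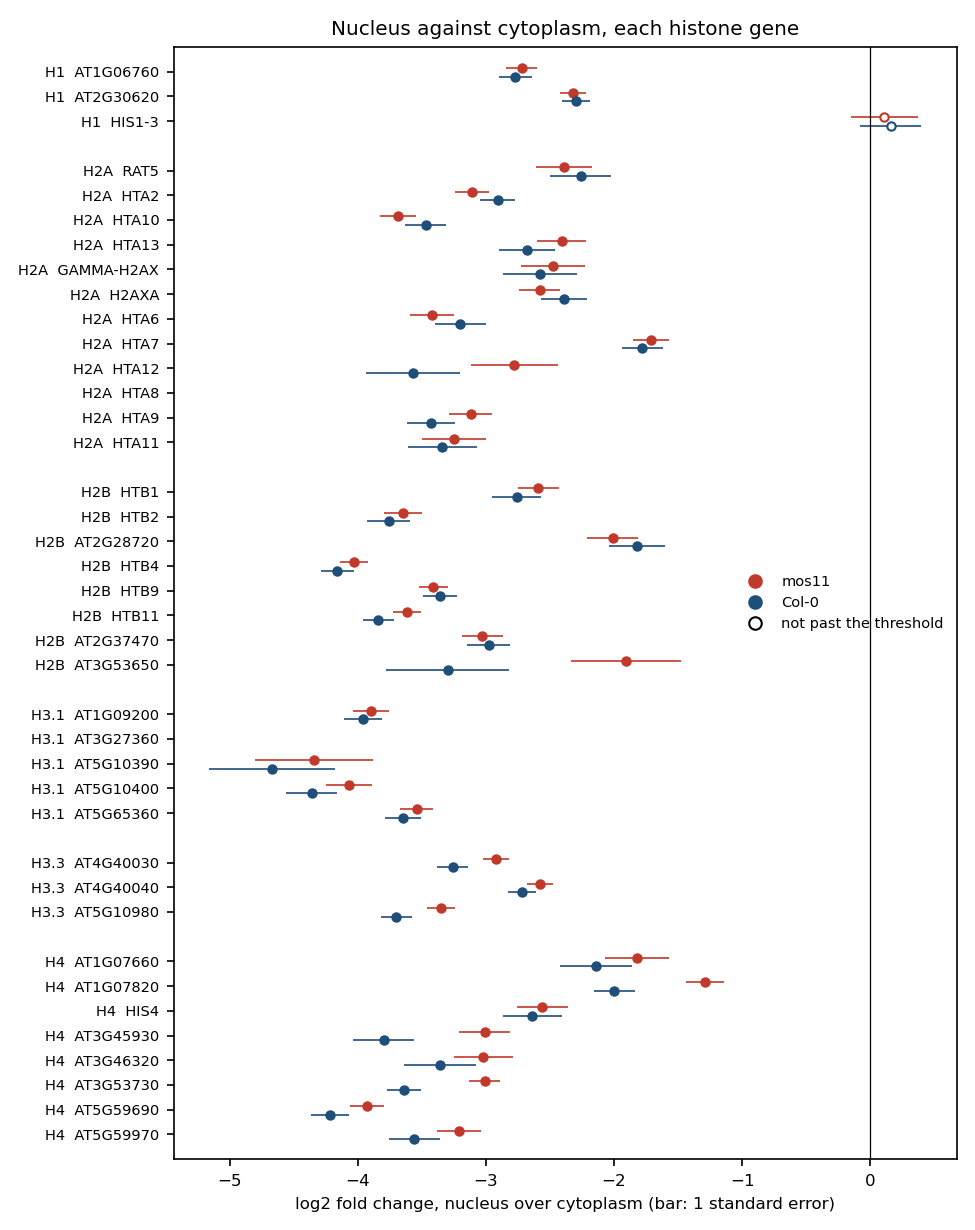
Log2 fold change of the nucleus over the cytoplasm for each histone gene (x axis; bars are 1 standard error), in mos11 (red) and Col-0 (blue), with filled points past the threshold. In both genotypes the genes tested lie at -1.29 or lower except HIS1-3, which lies at 0.11 in mos11 and 0.16 in Col-0; HTA8 and AT3G27360 were not tested.

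The nuclear deficit, meaning a lower scaled level in the nucleus, differed in size among the types. H3.1 genes had the lowest median, -3.98 in mos11 and -4.16 in Col-0. H1 genes had the highest, -2.32 in mos11 and -2.30 in Col-0. H2A stood next to H1, at -2.78 in mos11 and -2.91 in Col-0. Between these ends the order differed: in mos11 H2B (-3.22) lay below H4 (-3.01) and H3.3 (-2.92), and in Col-0 H4 (-3.46) lay below H2B (-3.33) and H3.3 (-3.26). Members with 1 exon in every annotated transcript (17 tested) had a median of -3.41 in mos11 and -3.65 in Col-0, and the others, which include AT1G07820 and AT5G59970 (20 tested), one of -2.65 and -2.74. Types and exon numbers go together in these families, and their parts in the order were not tested.

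Between the genotypes, histone transcripts were lower in mos11 where they differed. In the nucleus 8 of 37 genes were called lower in mos11 and 0 higher, against 10.9% lower and 9.14% higher of all genes tested. In the cytoplasm 16 of 37 were called lower in mos11 and 0 higher, against 6.40% lower and 6.02% higher of all genes tested. DESeq2 called 9 lower in the nucleus and 22 in the cytoplasm, and likewise 0 higher. At an unadjusted p of at most 0.05 edgeR had 13 of 37 genes in nuclei and 27 of 37 in cytoplasm. Such a p was found for 5119 of all 16207 genes tested in nuclei, a share close to that of the members, and for 4249 in cytoplasm. The median log2 fold change of the members was -0.24 in nuclei and -0.44 in cytoplasm, against -0.07 and 0.04 over all genes tested. Libraries of the genotypes did not overlap, with mos11 lower, for 10 members in the nucleus and 13 in the cytoplasm, against 13.3% and 5.26% of all genes tested. With mos11 higher there were 0 such members in either fraction, against 9.40% of all genes in nuclei and 5.47% in cytoplasm. In the cytoplasm 36 of the 37 genes lay below zero, against 7598 of all 16207 genes tested, and HTA10 alone lay above it. Transcripts of the same length range moved that way too, with 3892 of 6724 below zero. Of these 6724, 694 were called lower in the mos11 cytoplasm and 220 higher, with a median of -0.11. The cytoplasmic count hung on scaling: with raw library totals in place of TMM, 5 genes were called in the cytoplasm (AT1G06760, AT2G30620, HIS1-3, AT1G07820 and AT3G53730) and 33 of 37 lay below zero. The distance of the members' median from that of all genes was -0.48 under either scaling. A change of scaling moves all genes about equally, so this distance could hardly differ and is no check of the calls.

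**Figure D3:**
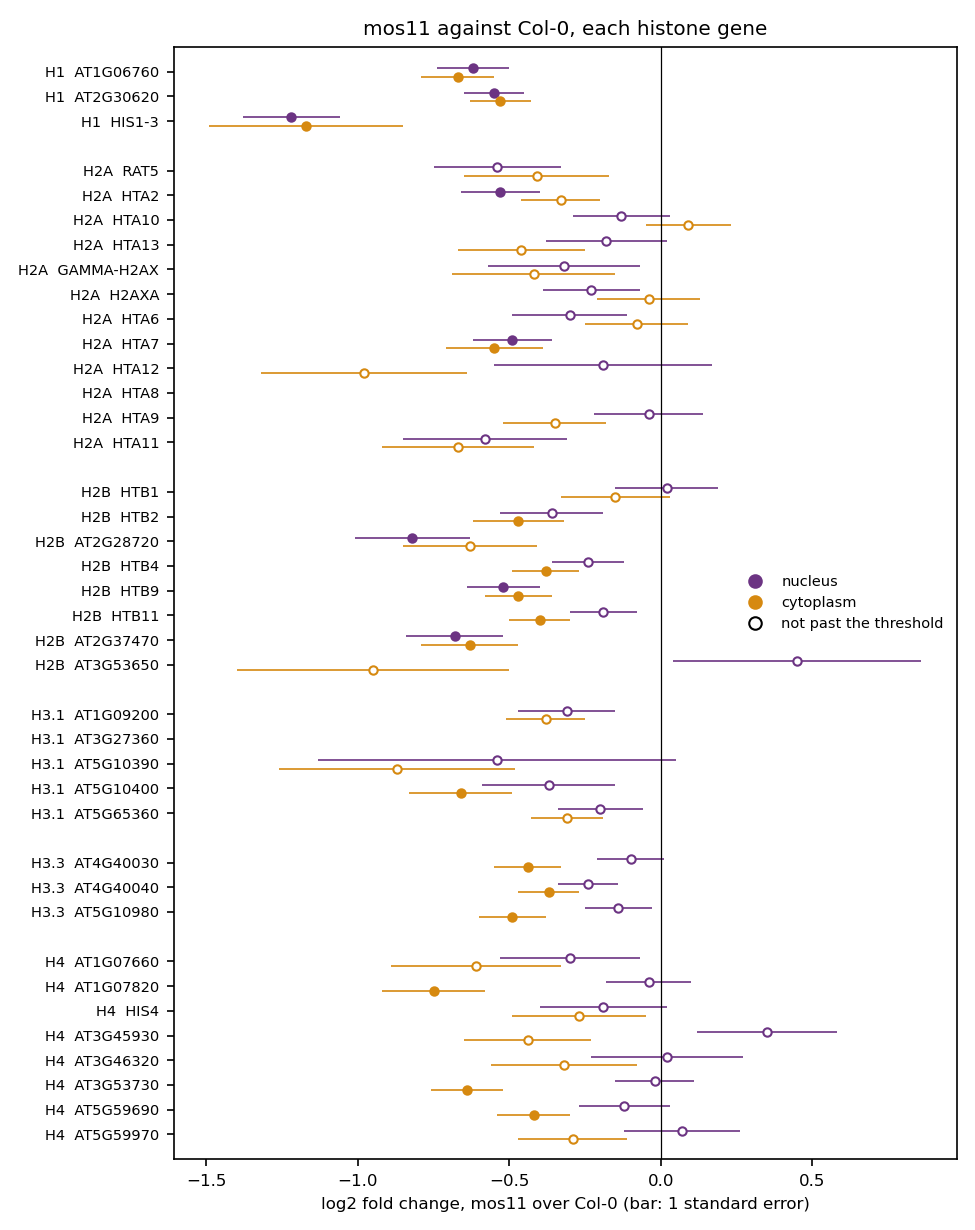
Log2 fold change of mos11 over Col-0 for each histone gene (x axis; bars are 1 standard error) in the nucleus (purple) and the cytoplasm (orange), with filled points past the threshold. The 3 H1 genes lie left of zero in both fractions. All 3 H3.3 genes and 3 of the 8 H4 genes have filled points in the cytoplasm. In the nucleus all points of these 2 types are open.

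Calls per type are counts among 3 to 11 tested genes, and differences among the types were not tested. Of all genes tested 10.9% were called lower in the nucleus and 6.40% in the cytoplasm. Several of the cytoplasmic calls depended on single libraries, as given below. All 3 H1 genes were called lower in mos11 in both fractions. Among H2A genes 2 of 11 were called in the nucleus and 1 of 11 in the cytoplasm, and among H2B genes 3 of 8 and 5 of 8. H3.1 and H3.3 had no call in the nucleus, and 1 of 4 and 3 of 3 in the cytoplasm. H4 had 0 of 8 in the nucleus and 3 of 8 in the cytoplasm. In both fractions 6 genes passed: AT1G06760, AT2G30620, HIS1-3, HTA7, HTB9 and AT2G37470. Whether any gene's change differed between the fractions is the subject of the last comparison.

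Summed per kilobase of annotated exons, linker histone RNA averaged 106.3 ± 2.38 CPM per kb in mos11 nuclei against 168.2 ± 13.7 in Col-0 nuclei (SD, n = 5 and 4). In the cytoplasm it averaged 593.5 ± 64.4 CPM per kb in mos11 and 921.5 ± 129 in Col-0. The ranges did not overlap in either fraction: the highest mos11 nucleus stood at 109.3 and the lowest Col-0 nucleus at 155.2, and the highest mos11 cytoplasm at 666.4 and the lowest Col-0 cytoplasm at 742.3. Among core histones H2A averaged 126.8 ± 10.8 CPM per kb in mos11 nuclei and 156.2 ± 6.91 in Col-0 nuclei, and H2B 128.0 ± 4.78 and 162.7 ± 9.60. H4 was close in the nuclei, 84.2 ± 6.24 in mos11 and 86.3 ± 2.22 in Col-0, and in the cytoplasm 613.3 ± 68.0 in mos11 and 839.0 ± 90.4 in Col-0. Ranges without overlap were not particular to H1. In the nuclei those of H2A, H2B and H3.3 did not overlap either, while those of H3.1 and H4 did. In the cytoplasm no type overlapped between the genotypes, though H3.1 came close (highest mos11 577.4, lowest Col-0 583.3). H1 RNA amounted to 20.1% ± 0.307 of core histone RNA in mos11 nuclei and 26.98% ± 2.26 in Col-0 nuclei, again without overlap (19.7% to 20.4% against 24.8% to 29.5%). In the cytoplasm the share was 12.8% ± 1.11 in mos11 and 15.1% ± 1.997 in Col-0, with ranges that overlapped. These sums are descriptions without a test.

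**Figure D4:**
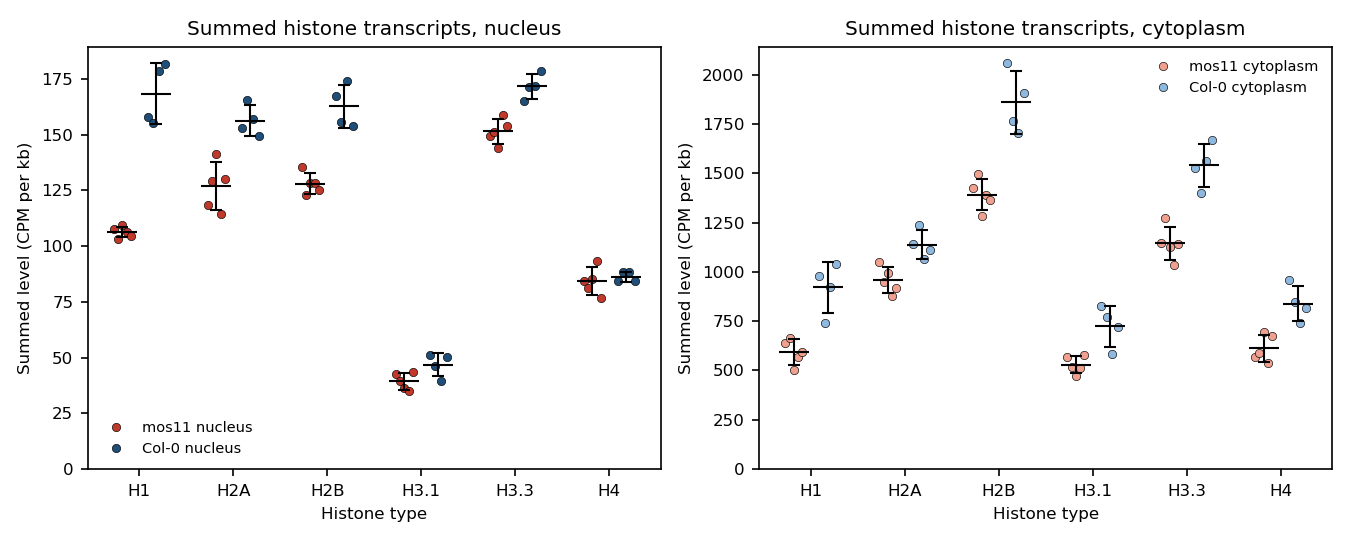
Summed level of each histone type (CPM per kb of annotated exons, y axis from 0) in every library, nucleus left and cytoplasm right, with mean and SD as bars. H1 ranges from 103.3 to 109.3 in mos11 nuclei and from 155.2 to 181.6 in Col-0 nuclei. Between the genotypes only H3.1 and H4 overlap in the nucleus, and no type overlaps in the cytoplasm.

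AT1G06760 (chr1:2076504-2077767, minus strand) is the most abundant per kilobase of the 3, in each of the 4 groups. AT1G06760 had 78.5, 70.9, 75.2, 72.2 and 69.7 CPM in the libraries of mos11 nuclei, against 99.99, 103, 122 and 124 CPM in those of Col-0 nuclei. It had 527, 546, 403, 449 and 483 CPM in the libraries of the mos11 cytoplasm, against 829.5, 573, 748 and 901 CPM in those of the Col-0 cytoplasm. No mos11 library reached the level of any Col-0 library of its fraction. The log2 fold change was -0.62 ± 0.12 in the nucleus (edgeR adjusted p = 5e-04) and -0.67 ± 0.12 in the cytoplasm (adjusted p = 0.00041). Both calls held in every alternative run and with each library left out. AT1G06750 and AT1G04503 overlap the gene from the opposite strand. No source used here tells whether reads were counted by strand.

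AT2G30620 (chr2:13044931-13046682, plus strand) encodes a protein 69.3% identical to that of AT1G06760, as translated from the annotated coding sequences. AT2G30620 had 53.9, 53.99, 56.2, 57.9 and 61.9 CPM in the libraries of mos11 nuclei, against 75.5, 80.5, 89.8 and 86.0 CPM in those of Col-0 nuclei. It had 295, 313, 239, 289.8 and 276 CPM in the libraries of the mos11 cytoplasm, against 408, 383, 435 and 399.6 CPM in those of the Col-0 cytoplasm. Genotypes did not overlap in either fraction. It fell by 0.55 ± 0.10 on the log2 scale in mos11 nuclei (adjusted p = 0.00022) and by 0.53 ± 0.10 in the mos11 cytoplasm (adjusted p = 0.00095), and these calls too held in every alternative. It overlaps AT2G30630 on the other strand.

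HIS1-3 (AT2G18050; chr2:7845923-7847031, plus strand) is the shorter, more diverged linker histone, with 167 residues against 274 in the product of AT1G06760 and 31.8% identity to it. It is known as the stress-inducible H1 of Arabidopsis, raised by drought and abscisic acid. HIS1-3 had 7.25, 9.42, 10.4, 9.21 and 7.10 CPM in the libraries of mos11 nuclei, against 25.3, 17.1, 18.3 and 22.3 CPM in those of Col-0 nuclei. It had 5.77, 7.26, 9.19, 6.66 and 12.3 CPM in the libraries of the mos11 cytoplasm, against 15.98, 17.3, 17.6 and 23.3 CPM in those of the Col-0 cytoplasm. Its mos11 libraries all lay below its Col-0 libraries, in both fractions. The difference was the widest among the histone genes in the nucleus, -1.22 ± 0.16 (adjusted p = 3.8e-06), which is 2.33-fold lower in mos11. In the cytoplasm it was -1.17 ± 0.32 (adjusted p = 0.016) on 5 to 11 counts per mos11 library and 6 to 13 per Col-0 library. Without Col-0 cytoplasm replicate 4 the cytoplasmic value was -1.04 with an adjusted p of 0.068. The nuclear call held in every alternative.

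HIS1-3 was also the only tested histone gene with no call between the fractions, at 0.11 ± 0.26 in mos11 (adjusted p = 0.72) and 0.16 ± 0.24 in Col-0 (adjusted p = 0.57), nucleus over cytoplasm. AT1G06760 stood at -2.72 ± 0.12 and -2.77 ± 0.13 in the same order of genotypes, and AT2G30620 at -2.32 ± 0.10 and -2.30 ± 0.11. With raw library totals, which shift the median of all genes by 1.12 in mos11 and 1.25 in Col-0, HIS1-3 was called higher in the nucleus, at 1.22 and 1.42. HIS1-3 lay above both other linker histone genes in both genotypes, an order that the choice of scaling can hardly change.

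**Figure D5:**
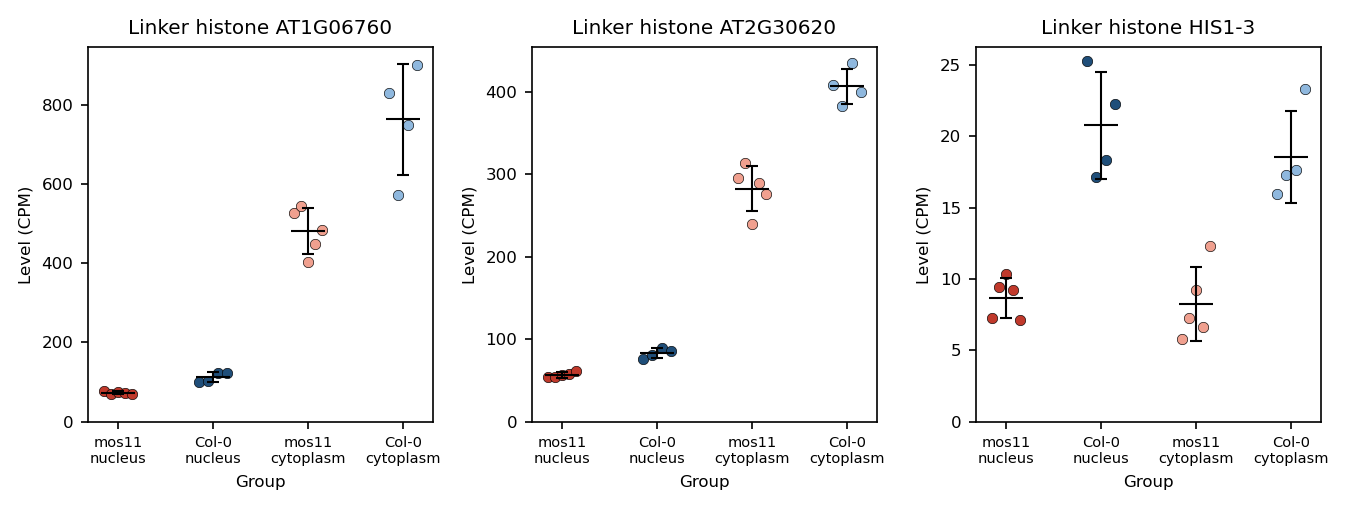
Level (CPM, y axis from 0) of the 3 linker histone genes in every library, with mean and SD as bars, mos11 beside Col-0 in the nucleus and then in the cytoplasm. HIS1-3 stands at like levels in the fractions of a genotype, whereas AT1G06760 and AT2G30620 stand several-fold higher in the cytoplasm.

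H2A comes as the canonical form and as variants: H2A.X, phosphorylated at DNA breaks, H2A.W, bound to heterochromatin, and H2A.Z, placed near the starts of genes. Between the genotypes 2 of the 11 genes tested were called. HTA7 (AT5G27670), an H2A.W gene, was lower in mos11 in both fractions. HTA7 had 14.5, 16.3, 17.01, 14.6 and 18.3 CPM in the libraries of mos11 nuclei, against 22.0, 24.02, 23.5 and 20.9 CPM in those of Col-0 nuclei. It had 50.7, 54.4, 41.4, 69.95 and 45.9 CPM in the libraries of the mos11 cytoplasm, against 75.1, 72, 85.4 and 75.3 CPM in those of the Col-0 cytoplasm. Its ranges did not overlap in either, though in the cytoplasm the highest mos11 library came close to the lowest Col-0 library. The log2 fold change was -0.49 ± 0.13 in the nucleus (adjusted p = 0.0089) and -0.55 ± 0.16 in the cytoplasm (adjusted p = 0.021). The cytoplasmic call was lost without mos11 cytoplasm replicate 3 or 5 or Col-0 cytoplasm replicate 3, with adjusted p of 0.050, 0.052 and 0.092. It was also lost with no filter on low counts (adjusted p = 0.050), with only the groups compared (0.052), with the replicate block (0.16) and with raw library totals (0.14).

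HTA2 (AT4G27230), a canonical H2A gene, was called in the nucleus. HTA2 had 8.94, 11.5, 12.3, 10.1 and 11.2 CPM in the libraries of mos11 nuclei, against 16.9, 14.9, 16.97 and 14.5 CPM in those of Col-0 nuclei. These ranges did not overlap, and the change was -0.53 ± 0.13 (adjusted p = 0.0055). In the cytoplasm it was -0.33 ± 0.13 with overlapping libraries (adjusted p = 0.098). The other H2A.W genes, HTA6 and HTA12, gave -0.30 ± 0.19 and -0.19 ± 0.36 in the nucleus, neither of them called. HTA12 (AT5G02560) had 12.2 to 39.2 CPM in the mos11 cytoplasm and 20.8 to 60.5 in the Col-0 cytoplasm, a difference of -0.98 ± 0.34 (adjusted p = 0.054). Without mos11 cytoplasm replicate 1, at 39.2 CPM, it was -1.49 (adjusted p = 0.0022), and without Col-0 cytoplasm replicate 1 it was -1.20 (adjusted p = 0.024). The H2A.X genes H2AXA and GAMMA-H2AX and the H2A.Z genes HTA9 and HTA11 had no call in either fraction.

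Per kilobase HTA7 led the H2A genes in the nucleus by its mean, at 17.0 CPM per kb in mos11 and 23.9 in Col-0, and HTA10 (AT1G51060) led them in the cytoplasm, at 219.7 and 207.1. Libraries of HTA7 overlapped those of HTA10 in mos11 nuclei, and libraries of HTA10 overlapped those of HTA9 in the Col-0 cytoplasm. In mos11 nuclei HTA10, at 16.8, stood next to HTA7, while HTA7 ranked 7 among the H2A genes in the cytoplasm of both genotypes. HTA7 had the smallest nuclear deficit of the 11 H2A genes tested, -1.71 ± 0.14 in mos11 and -1.78 ± 0.16 in Col-0. HTA10 had 12.8, 15.3, 15.04, 14.0 and 13.2 CPM in the libraries of mos11 nuclei, against 15.1, 18.1, 13.7 and 15.1 CPM in those of Col-0 nuclei. It had 221, 208, 185, 151 and 156 CPM in the libraries of the mos11 cytoplasm, against 216, 169.9, 130.1 and 179 CPM in those of the Col-0 cytoplasm. HTA10 had the largest deficit of these 11 in mos11, -3.69 ± 0.14, and it stood at -3.47 ± 0.16 in Col-0. Its libraries overlapped between the genotypes in both fractions, with differences of -0.13 ± 0.16 and 0.09 ± 0.14. In Col-0 the largest was that of HTA12, -3.57 ± 0.37, which stood at -2.78 ± 0.34 in mos11.

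H2B pairs with H2A in the nucleosome, and its monoubiquitination goes with transcription. Of the 8 genes, 3 were called lower in mos11 nuclei and 5 in the mos11 cytoplasm. HTB9 (AT3G45980) passed in both. HTB9 had 19.3, 17.8, 16.03, 22.9 and 16.9 CPM in the libraries of mos11 nuclei, against 27.4, 24.2, 27.1 and 27.7 CPM in those of Col-0 nuclei. It had 204, 191, 195, 202 and 194 CPM in the libraries of the mos11 cytoplasm, against 302, 225, 259 and 298 CPM in those of the Col-0 cytoplasm. The genotypes did not overlap in either fraction, and the changes were -0.52 ± 0.12 (adjusted p = 0.0024) and -0.47 ± 0.11 (adjusted p = 0.0059), nucleus before cytoplasm. HTB9 overlaps AT3G45970 and AT3G07315 on the other strand. AT2G37470 also passed in both. AT2G37470 had 5.80, 5.24, 5.92, 4.75 and 5.75 CPM in the libraries of mos11 nuclei, against 7.79, 10.8, 7.39 and 8.36 CPM in those of Col-0 nuclei. It had 39.2, 45.97, 49.02, 39.97 and 49.3 CPM in the libraries of the mos11 cytoplasm, against 71.9, 63.4, 69.1 and 69.9 CPM in those of the Col-0 cytoplasm. All mos11 libraries of this gene lay below all Col-0 libraries of the same fraction, with changes of -0.68 ± 0.16 in the nucleus (adjusted p = 0.004) and -0.63 ± 0.16 in the cytoplasm (adjusted p = 0.0092).

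AT2G28720 was called in the nucleus. AT2G28720 had 11.6, 9.82, 11.6, 9.50 and 13.5 CPM in the libraries of mos11 nuclei, against 20.2, 14.5, 26.8 and 17.1 CPM in those of Col-0 nuclei. Its ranges did not overlap there, with a change of -0.82 ± 0.19 (adjusted p = 0.0022). In the cytoplasm the change was -0.63 ± 0.22 (adjusted p = 0.058), and Col-0 cytoplasm replicate 2, at 34.6 CPM, lay below every mos11 library; without it the value was -0.78 (adjusted p = 0.014). HTB11 (AT3G46030) was called in the cytoplasm. HTB11 had 280.2, 290.4, 248, 266 and 251 CPM in the libraries of the mos11 cytoplasm, against 358, 363, 344 and 351 CPM in those of the Col-0 cytoplasm. The mos11 libraries stood in a narrow band well under those of Col-0, a change of -0.40 ± 0.10 (adjusted p = 0.0088), against -0.19 ± 0.11 in the nucleus (adjusted p = 0.26).

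HTB4 (AT5G59910), by its mean the most abundant H2B gene per kilobase in the cytoplasm of both genotypes, changed by -0.38 ± 0.11 there (adjusted p = 0.018). Per kilobase its libraries overlapped those of HTB11 in the cytoplasm of both genotypes. HTB4 had 490.1, 509, 449, 483 and 472 CPM in the libraries of the mos11 cytoplasm, against 689, 593, 556 and 659 CPM in those of the Col-0 cytoplasm. It had 27.1, 27.2, 32.05, 32.1 and 30.1 CPM in the libraries of mos11 nuclei, against 27.7, 38.2, 38.6 and 34.4 CPM in those of Col-0 nuclei. Cytoplasmic libraries of the genotypes did not overlap, while in the nuclei they did. It had the largest nuclear deficit of the H2B genes in both genotypes, -4.03 ± 0.11 in mos11 and -4.16 ± 0.13 in Col-0. Leaving out mos11 cytoplasm replicate 4, Col-0 cytoplasm replicate 1 or Col-0 cytoplasm replicate 4 moved its adjusted p between the genotypes to 0.060, 0.069 and 0.060. HTB2 (AT5G22880), whose promoter is printed above, changed by -0.47 ± 0.15 in the cytoplasm (adjusted p = 0.035) with libraries that overlapped, 118.0 to 193.6 CPM in mos11 against 187.0 to 271.7 in Col-0. That call was lost on leaving out any of 5 of the cytoplasmic libraries, at adjusted p of 0.071 to 0.16, and with no filter on low counts or only the groups compared (0.051 in both). HTB1 stood at 0.02 ± 0.17 and -0.15 ± 0.18, neither called.

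AT3G53650 is a scarce H2B gene, with 1 to 51 counts per mos11 nucleus and 4 to 9 per Col-0 nucleus. It had the smallest H2B deficit in mos11 nuclei, -1.91 ± 0.43, and one of -3.30 ± 0.48 in Col-0. In Col-0 the smallest was that of AT2G28720, -1.82 ± 0.22, which stood at -2.01 ± 0.20 in mos11.

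Histone H3 is made as H3.1 and H3.3. The 5 H3.1 genes encode the same protein of 136 residues, and the products of the H3.3 genes AT4G40040 and AT5G10980 differ from it at 4 positions. The ratio of H3.3 to H3.1 RNA, both per kilobase, was 3.88 ± 0.424 in mos11 nuclei and 2.17 ± 0.226 in the mos11 cytoplasm, against 3.70 ± 0.463 in Col-0 nuclei and 2.17 ± 0.410 in the Col-0 cytoplasm. Nuclear ratios thus ran higher than cytoplasmic ones in either genotype, without overlap between fractions (3.504 to 4.55 against 1.98 to 2.45 in mos11, 3.23 to 4.33 against 1.82 to 2.68 in Col-0). Genotypes overlapped in both fractions.

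All 3 H3.3 genes were called lower in the mos11 cytoplasm and none in mos11 nuclei. AT5G10980 (chr5:3472405-3473570, minus strand) had the smallest p of them. AT5G10980 had 415, 421, 371, 343 and 346 CPM in the libraries of the mos11 cytoplasm, against 549.8, 467, 496 and 611 CPM in those of the Col-0 cytoplasm. It had 37.0, 37.4, 36.5, 36.8 and 37.5 CPM in the libraries of mos11 nuclei, against 35.8, 40.2, 40.5 and 46.4 CPM in those of Col-0 nuclei. Cytoplasmic libraries of the genotypes stood apart and nuclear ones overlapped, with changes of -0.49 ± 0.11 in the cytoplasm (adjusted p = 0.0025) and -0.14 ± 0.11 in the nucleus (adjusted p = 0.41). AT4G40030 (chr4:18555532-18557106, minus strand) behaved likewise in the counts. AT4G40030 had 282, 327, 302, 239 and 270.0 CPM in the libraries of the mos11 cytoplasm, against 403, 386, 356 and 392.4 CPM in those of the Col-0 cytoplasm. It had 36.5, 38.4, 34.3, 39.5 and 38.9 CPM in the libraries of mos11 nuclei, against 37.6, 38.9, 38.3 and 45.4 CPM in those of Col-0 nuclei. Here again the cytoplasmic groups did not overlap and the nuclear ones did, with changes of -0.44 ± 0.11 (adjusted p = 0.0059) and -0.10 ± 0.11 (adjusted p = 0.58). AT4G40040 (chr4:18557149-18558945, minus strand) is the H3.3 gene with the highest nuclear level per kilobase. AT4G40040 had 639, 772, 674, 656 and 776 CPM in the libraries of the mos11 cytoplasm, against 834, 812, 1035 and 944 CPM in those of the Col-0 cytoplasm. It had 116, 115, 111, 127 and 119 CPM in the libraries of mos11 nuclei, against 140.3, 139.9, 141 and 132 CPM in those of Col-0 nuclei. Its groups did not overlap in either fraction, yet the nuclear change of -0.24 ± 0.10 did not pass (adjusted p = 0.094), while the cytoplasmic one of -0.37 ± 0.10 did (adjusted p = 0.013). DESeq2 called the nuclear change of AT4G40040 as well, at -0.22 (adjusted p = 0.032). Without mos11 cytoplasm replicate 4 or Col-0 cytoplasm replicate 3 the cytoplasmic call of AT4G40040 was lost, at adjusted p of 0.076 and 0.066. None of the H3.3 calls held with raw library totals, where the changes were -0.17 to -0.29 and the median of all genes lay at 0.24.

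Of the 4 H3.1 genes tested, AT5G10400 was called lower in the mos11 cytoplasm. AT5G10400 had 86.5, 64.1, 67.4, 74.4 and 73.9 CPM in the libraries of the mos11 cytoplasm, against 158, 129.6, 94.9 and 84.2 CPM in those of the Col-0 cytoplasm. It had 4.35, 4.26, 4.44, 4.46 and 4.40 CPM in the libraries of mos11 nuclei, against 7.26, 5.96, 3.83 and 5.37 CPM in those of Col-0 nuclei. The cytoplasmic ranges overlapped by 1 library, and the change was -0.66 ± 0.17 (adjusted p = 0.0099), or -0.45 (adjusted p = 0.097) without Col-0 cytoplasm replicate 1. In the nucleus it was -0.37 ± 0.22 (adjusted p = 0.26). AT5G65360 is by its mean the most abundant H3.1 gene per kilobase in all 4 groups, though its libraries overlapped those of AT1G09200 in the Col-0 cytoplasm. AT5G65360 had 156, 159.7, 149, 154 and 200.5 CPM in the libraries of the mos11 cytoplasm, against 201, 204, 188 and 219 CPM in those of the Col-0 cytoplasm. It had 15.7, 14.3, 11.8, 11.6 and 16.9 CPM in the libraries of mos11 nuclei, against 15.9, 14.3, 15.3 and 18.9 CPM in those of Col-0 nuclei. The genotypes overlapped in both fractions. It gave -0.31 ± 0.12 in the cytoplasm (adjusted p = 0.11) and -0.20 ± 0.14 in the nucleus (adjusted p = 0.35). Mos11 cytoplasm replicate 5, at 200.5 CPM, stood above the other 4 mos11 libraries there, and without it the change was -0.39 (adjusted p = 0.045). Between the fractions AT5G65360 had the smallest deficit of the 4 H3.1 genes tested, -3.54 ± 0.13 in mos11 and -3.65 ± 0.14 in Col-0. The largest of all histone genes tested was that of AT5G10390, -4.34 ± 0.46 in mos11 and -4.67 ± 0.49 in Col-0, which is 20.3-fold and 25.5-fold. AT5G10390 is scarce in nuclei, with 2 to 29 counts per mos11 library and 1 to 11 per Col-0 library.

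The 8 H4 genes encode 1 identical protein of 103 residues, so they can be told apart at the RNA level alone. Some pairs are close there too. The coding sequences of AT1G07660 and AT1G07820 differ at 6 of 312 bases, those of AT3G45930 and AT3G46320 at 8 and those of AT5G59690 and AT5G59970 at 9. Windows of 50 bases that occur once in the genome make up 71.5% of the transcript of AT1G07660, 80.6% of AT1G07820, 74.3% of AT3G45930 and 72.1% of AT3G46320, and 91.5% to 100% of the other 4. Values of these pairs are therefore uncertain as to which partner they belong to, since no source used here tells how reads with several positions were treated. The first 60 coding bases show how alike the pairs are, with capitals where partners differ:
AT1G07660, chr1:2369212-2369271, plus strand: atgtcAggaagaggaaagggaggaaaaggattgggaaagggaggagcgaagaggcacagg
AT1G07820, chr1:2421687-2421746, minus strand: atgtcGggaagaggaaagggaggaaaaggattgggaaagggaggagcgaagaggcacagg
AT3G45930, chr3:16883390-16883449, plus strand: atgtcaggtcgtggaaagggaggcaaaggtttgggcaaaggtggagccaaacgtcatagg
AT3G46320, chr3:17020295-17020354, minus strand: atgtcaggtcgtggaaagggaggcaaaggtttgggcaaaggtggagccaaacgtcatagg
AT5G59690, chr5:24051649-24051708, plus strand: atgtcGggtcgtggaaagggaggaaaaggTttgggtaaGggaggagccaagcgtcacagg
AT5G59970, chr5:24146604-24146663, minus strand: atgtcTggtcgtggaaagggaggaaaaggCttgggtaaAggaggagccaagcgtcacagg
The second pair is the same in all 60 bases, the first differs at 1 and the third at 3.

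Between the genotypes 3 of the 8 H4 genes were called lower in the mos11 cytoplasm and 0 in mos11 nuclei. An unadjusted p of at most 0.05 in the nuclei was reached by 0 of the 8, against 5119 of all 16207 genes tested. AT3G53730 (chr3:19912385-19913515, minus strand) has no near copy among the H4 genes, as 100% of its windows are unique. AT3G53730 had 92.2, 95.6, 99.6, 102 and 119.9 CPM in the libraries of the mos11 cytoplasm, against 153, 161, 144 and 179 CPM in those of the Col-0 cytoplasm. It had 13.0, 12.3, 12.1, 14.3 and 11.5 CPM in the libraries of mos11 nuclei, against 12.9, 11.9, 13.1 and 13.1 CPM in those of Col-0 nuclei. The cytoplasmic groups stood well apart, the nuclear groups overlapped, and the changes were -0.64 ± 0.12 (adjusted p = 0.00065) and -0.02 ± 0.13 (adjusted p = 0.95). AT1G07820 (chr1:2421089-2422066, minus strand), the H4 gene with the highest nuclear level per kilobase, gave a like picture. AT1G07820 had 43.8, 49.6, 64.3, 38.9 and 54.9 CPM in the libraries of the mos11 cytoplasm, against 95.9, 63.4, 93.5 and 75.3 CPM in those of the Col-0 cytoplasm. It had 20.3, 20.4, 20.5, 22.9 and 17.6 CPM in the libraries of mos11 nuclei, against 21.5, 23.3, 19.7 and 18.9 CPM in those of Col-0 nuclei. The cytoplasmic groups overlapped only in that the highest mos11 library lay just above the lowest Col-0 library. Its changes were -0.75 ± 0.17 in the cytoplasm (adjusted p = 0.003) and -0.04 ± 0.14 in the nucleus (adjusted p = 0.9). The cytoplasmic calls of AT3G53730 and AT1G07820 held in every alternative and with each library left out.

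AT5G59690 is the most abundant H4 gene per kilobase in the cytoplasm of both genotypes, at 198.6 CPM per kb in mos11 and 263.3 in Col-0. AT5G59690 had 157, 134, 156, 127 and 166 CPM in the libraries of the mos11 cytoplasm, against 230.2, 169.9, 175 and 209.7 CPM in those of the Col-0 cytoplasm. It had 11.1, 9.06, 10.11, 9.80 and 8.79 CPM in the libraries of mos11 nuclei, against 12.6, 10.2, 10.13 and 9.35 CPM in those of Col-0 nuclei. Its cytoplasmic groups did not overlap, with a change of -0.42 ± 0.12 (adjusted p = 0.026), against -0.12 ± 0.15 in the nucleus (adjusted p = 0.63). Leaving out mos11 cytoplasm replicate 2 or 4 or Col-0 cytoplasm replicate 1 or 4 ended that call, at adjusted p of 0.064 to 0.12, as did no filter on low counts (0.060) and only the groups compared (0.057). The other 5 H4 genes had cytoplasmic changes of -0.27 to -0.61, none called. Between the fractions the ends of the H4 range were these 2 genes: AT5G59690 stood at -3.93 ± 0.13 in mos11 and -4.22 ± 0.15 in Col-0, and AT1G07820 at -1.29 ± 0.15 and -2.0 ± 0.16.

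The last comparison asked whether the nucleus to cytoplasm ratio of histone transcripts differed in mos11 from that in Col-0. Made of scaled levels, it measures a shift between the compartments relative to other transcripts. No histone gene was called by edgeR, against 0.660% of all genes tested with a higher ratio and 0.919% with a lower one. An unadjusted p was at most 0.05 for 6 of 37, against 2434 of all 16207 genes tested. The median of the members was 0.13, against -0.09 over all genes and 0.07 over genes in the length range of the members. Above zero lay 27 of the 37, against 6887 of all 16207 genes tested and 3739 of the 6724 in that length range. H4, H3.3 and H3.1 genes lay above zero throughout (8 of 8, 3 of 3 and 4 of 4), whereas H1 genes stood at -0.05 to 0.05. With raw library totals 7 of 8, 2 of 3 and 2 of 4 lay above zero, and 17 of all 37, with the 3 H1 genes below it. AT3G53730 had the smallest p, with 0.62 ± 0.18 (adjusted p = 0.070), followed by AT1G07820 with 0.72 ± 0.22 (adjusted p = 0.092). DESeq2 called these 2 genes, at 0.67 (adjusted p = 0.015) and 0.78 (adjusted p = 0.0083). The largest value, 1.39 ± 0.61 for the scarce H2B gene AT3G53650, had an adjusted p of 0.27. So a call in the cytoplasm and none in the nucleus was not, by edgeR, shown to be a difference between the fractions for any histone gene.

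Genes that work with histones were set beside them. Among histone chaperones, 12 of 13 were tested: 0 were called between the genotypes in the nucleus, where 2 had an unadjusted p of at most 0.05, and 1 in the cytoplasm, where 4 had. Over all 16207 genes tested, 5119 in the nucleus and 4249 in the cytoplasm had such a p. Of all genes tested 10.9% were called lower and 9.14% higher in the nucleus, and 6.40% lower and 6.02% higher in the cytoplasm. NAP1;2 (AT2G19480), a chaperone of H2A and H2B, was higher in the mos11 cytoplasm, at 190.5 ± 25.4 CPM in mos11 and 132.7 ± 9.54 CPM in Col-0, a change of 0.53 ± 0.12 (edgeR adjusted p = 0.0038). In the nucleus it averaged 63.8 ± 2.82 CPM in mos11 and 64.6 ± 5.17 CPM in Col-0. Its relatives NAP1;1 and NRP1 stood at 0.43 ± 0.15 and 0.42 ± 0.16 in the cytoplasm (adjusted p = 0.067 and 0.088). NRP2 stood at 0.51 ± 0.20 in the nucleus, and FAS1, a subunit of CAF-1, at -0.35 ± 0.17 (adjusted p = 0.071 and 0.16).

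DNA replication genes of S phase, 15 of 16 tested, had 0 calls between the genotypes in either fraction, with medians of -0.15 in nuclei and -0.10 in cytoplasm. An unadjusted p of at most 0.05 was reached by 1 of them in the nucleus and 0 in the cytoplasm. Of all 16207 genes tested, 5119 and 4249 reached it in these fractions. Calls were made for 10.9% lower and 9.14% higher in the nucleus, and for 6.40% lower and 6.02% higher in the cytoplasm. MCM5, a subunit of the replicative helicase, had the smallest nuclear p, at -0.42 ± 0.18 (adjusted p = 0.10). Mitotic genes, 6 of 10 tested, likewise had 0 calls, with 1 at an unadjusted p of at most 0.05 in each fraction, and medians of -0.26 in nuclei and -0.21 in cytoplasm. The cyclin gene CYC1BAT (AT5G06150) stood at -0.53 ± 0.22 in the nucleus (adjusted p = 0.085), and SYP111, the cytokinesis syntaxin KNOLLE, at -0.43 ± 0.20 in the cytoplasm (adjusted p = 0.17). Of 10 further histone genes outside the 39, among them the centromeric HTR12 and the pollen-expressed MGH3, none had enough counts to be tested. Markers of cell types moved in part with the genotype. Of the 4 leaf markers, CA1 and RCA were called higher and CAB2 lower in mos11 nuclei, at 1.13 ± 0.17, 0.35 ± 0.10 and -0.69 ± 0.11, and CAB2 was called lower in the mos11 cytoplasm at -0.49 ± 0.11. Summed, the leaf markers ranged from 4557 to 5248 CPM in mos11 nuclei and from 3650 to 4939 CPM in Col-0 nuclei. The meristem marker KNAT1 averaged 16.2 ± 3.498 CPM in the mos11 cytoplasm and 8.05 ± 1.65 CPM in the Col-0 cytoplasm, a change of 0.93 ± 0.35 (adjusted p = 0.077). Summed, the 4 meristem markers ranged from 15.6 to 30.6 CPM in the mos11 cytoplasm and from 5.76 to 18.97 CPM in the Col-0 cytoplasm, where CLV3 and WUS were at 0 in all libraries of both. The part of these cell types in the histone values was not tested.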

How the data were processed

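RNA of nuclear and cytoplasmic fractions was measured in 18 libraries of 4 groups. The authors deposited counts of reads per gene as whole numbers, not normalized, for 30901 genes. TAIR10 is the build, and featureCounts, UMI-tools, Picard and STAR 2.7.8a are the tools, listed in the submitters' processing notes, without their roles. Strand and the treatment of reads with several positions are not given in these sources. Per the labels' protocols, ribosomal RNA was depleted and external control RNA was added, which was not used here. GEO lists 28 samples, since libraries on both flow cells are listed for each; the table holds 1 column per library, and no source used here tells whether it sums both flow cells.

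Counts were tested with edgeR 4.0.16 in R 4.3.3: filterByExpr, TMM scaling and the quasi-likelihood test over the 4 groups, with Benjamini-Hochberg adjustment over 16207 genes and a threshold of 0.05. Standard errors are the log2 fold change divided by the square root of F. CPM used TMM library sizes, and CPM per kb the length of all annotated exons of a gene, merged over its transcripts. That length can exceed the transcript with the longest coding sequence: 1506 against 738 bases for HTA12, 1324 against 794 for AT4G40030 and 1510 against 1289 for AT4G40040. Levels per kb of such genes, and sums and ratios that hold them, depend on this length. The 5 comparisons set the nuclear against the cytoplasmic libraries of either genotype, mos11 against Col-0 within either fraction, and the nucleus to cytoplasm ratio of mos11 against that of Col-0. Alternatives were DESeq2 1.42.0, its size factors in edgeR, no filter on low counts, a replicate block, only the groups compared, leaving out each library, and leaving out both libraries of Col-0 replicate 3; scaling by raw library totals was added after the data were seen. The fits were tested on simulated counts. No pair of libraries of a group agreed within sampling noise (chi-square per degree of freedom 1.16 to 11.5).

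Replicate numbers were checked for pairing by the correlation of same-numbered libraries' deviations from their group means. Between the fractions of Col-0 all 4 pairs reached 0.105 to 0.333, so the numbers were taken to pair these samples. In mos11 they reached 0.015 to 0.053, and across genotypes -0.090 to 0.102 for nuclei and -0.020 to 0.036 for cytoplasm.

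Values per library are given for members past the threshold between the genotypes (at most 12 per comparison, by p), the most abundant member of each type and the ends of each type between the fractions, and for up to 3 genes per related list. The members and lists were chosen with earlier results of these data known. Gene symbols, structures and sequences are those of RefSeq on TAIR10.1, matched for all 39 members; windows counted as unique are 50 bases long. Counts limit the precision of the scarce genes, and intervals cover no other error.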

Additional observations from a re-analysis of the deposited data

Results flagged for a closer look

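Levels of single histone genes and summed levels were checked in 184 groups of libraries. In 6 of them 1 library stood apart from the others of its group, each time in the level of a single gene. Chance alone flags about 1 in 20 groups. HTB9 (AT3G45980) had 24.2 CPM in Col-0 nucleus replicate 2, below 27.1 to 27.7 CPM in the other Col-0 nuclei. AT4G40030 had 45.4 CPM in Col-0 nucleus replicate 4, above 37.6 to 38.9 CPM in the others. AT4G40040 had 132 CPM in the same library, below 139.9 to 141 CPM in the others. HTA12 (AT5G02560) had 3.73 CPM in Col-0 nucleus replicate 2, above 2.69 to 2.79 CPM in the others, on 20 counts. The same gene had 39.2 CPM in mos11 cytoplasm replicate 1, above 12.2 to 13.8 CPM in the others, on 34 counts. AT5G65360 had 200.5 CPM in mos11 cytoplasm replicate 5, above 149 to 159.7 CPM in the others.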

How the results depend on the processing

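The number of histone genes called between nucleus and cytoplasm was 35 to 38 under every alternative in both genotypes (36 as reported), and that between the genotypes in the nucleus was 6 to 9 (8 as reported). In the cytoplasm the count of 16 was 6 with the replicate block and 5 with raw library totals, and 13 to 22 under the other settings; leaving out 1 library gave 12 to 19. The block kept AT1G06760, AT2G30620, HTB2, AT1G07820 and AT3G53730 and added HTA11; the numbers do not pair these libraries. In the nucleus the block called 6 of 35, without HTA2 (adjusted p = 0.055) and AT2G37470 (adjusted p = 0.058). The block changed no call of the paired Col-0 fractions, 35 of 36 genes tested. For the ratio between fractions DESeq2 called 2 genes against 0 by edgeR, and leaving out 1 library gave 0 to 0. With raw library totals AT1G07820 (-0.17, adjusted p = 0.28) and AT3G53650 (-0.80, adjusted p = 0.066) lost their call between the fractions of mos11. The ratio was not fitted on only the groups compared, as it uses all of them. Causes were not tested. Depth limits the scarce genes: HIS1-3 rests on 5 to 11 counts per library in the mos11 cytoplasm and 6 to 13 in the Col-0 cytoplasm, and AT5G10390 on 2 to 29 in mos11 nuclei and 1 to 11 in Col-0 nuclei.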
